A study of Triticum aestivum and Triticum urartu and Aegilops speltoides with 12 samples.

Results

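The transcripts described here were read at a lower level in both hexaploid wheats than in each of 4 diploid grasses. They are 150 of the 56855 features on a NimbleGen seedling array. The deposited intensities were put on a log2 scale, values under 7 were set to 7, and the 2 arrays of each of 6 groups were averaged. A feature met the rule when the widest gap between neighbouring group means was at least 0.7 and only the 2 hexaploid groups lay below it. This held for 257 features, and the 150 with the widest gaps were kept as members. The measured difference between hexaploids and diploids therefore chose the members, and it is given here as a description.

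The diploids were Triticum urartu, the A genome progenitor of wheat, Aegilops speltoides, labelled as the B genome progenitor, Aegilops tauschii, the D genome progenitor, and rye, Secale cereale. The hexaploids, both Triticum aestivum, were a wheat and a line with the 2BS.2RL translocation, whose name says that the short arm of wheat chromosome 2B is joined to the long arm of rye chromosome 2R. Both are hereafter called wheat and translocation. No treatment is labelled. Seedlings were grown for 10 days to the third leaf stage and were harvested whole with leaves and roots. Each array held Cy3-labelled total RNA pooled from 2 seedlings, with 2 biological replicates a group and 12 arrays in all. The sources used here name no accession or cultivar, so each group can speak only for the seed it was grown from. Ae. speltoides is a relative of the B genome donor and not a proven copy of it.

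Bread wheat arose by hybridisation and chromosome doubling and carries a homoeologous copy of most genes from each of its A, B and D progenitors. A probe on such an array can read the copies together or only those whose sequence it matches. In polyploids the summed level of a gene is often close to the average of its parents, and a level outside the range of the parents is one form of non-additive expression. Rye is not a parent of wheat and is a related diploid, so a transcript that is high in rye as well as in the progenitors is one that all 4 diploids express. In whole seedlings fewer cells of a type and less RNA per cell cannot be told apart. The features carry IDs made from a species name and a number, none matched the wheat gene table (0 IDs), and no gene name, function or tissue marker could be assigned.

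Array medians lay between 1588 and 1667, and the arrays of a replicate pair correlated at r = 0.968 to 0.990. One point bears on the labels of the hexaploid lines. Of 1648 features called higher in rye than in each of the 3 progenitors, 58 were called lower and 12 higher in translocation than in wheat, where 0.311% of all features were called lower and 0.331% higher. More calls higher than lower would be looked for in a line that carries a rye arm, and whether the labels were exchanged was not tested. Exchanging those labels would leave the members as they are, since the rule treats both lines alike, and 1 of the 1648 is a member. It would reverse the direction of each difference between the lines given below, and swap the values given for each line.

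On the 8 diploid arrays the members had median log2 intensities between 9.94 (Ae. tauschii replicate 2) and 10.37 (rye replicate 1). On the 4 hexaploid arrays the medians were 8.61 and 8.70 in wheat and 8.64 and 8.46 in translocation. The hexaploid minus the diploid mean had a median of -1.45 on the log2 scale, which is 2.74 times lower, and the range ran from 1.86 to 13.8 times. Over all features the same difference had a median of -0.11 (log2). Expressed on the linear scale, wheat held a median of 39.7% of the mean of its 3 progenitors and translocation 37.0%. These shares were 89.8% and 90.0% over all features. Levels under 25% of the progenitor mean were found for 22 members in wheat and 27 in translocation. Over all 56855 features they were found for 438 in wheat and 514 in translocation, so most such features are not members.

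**Figure D1:**
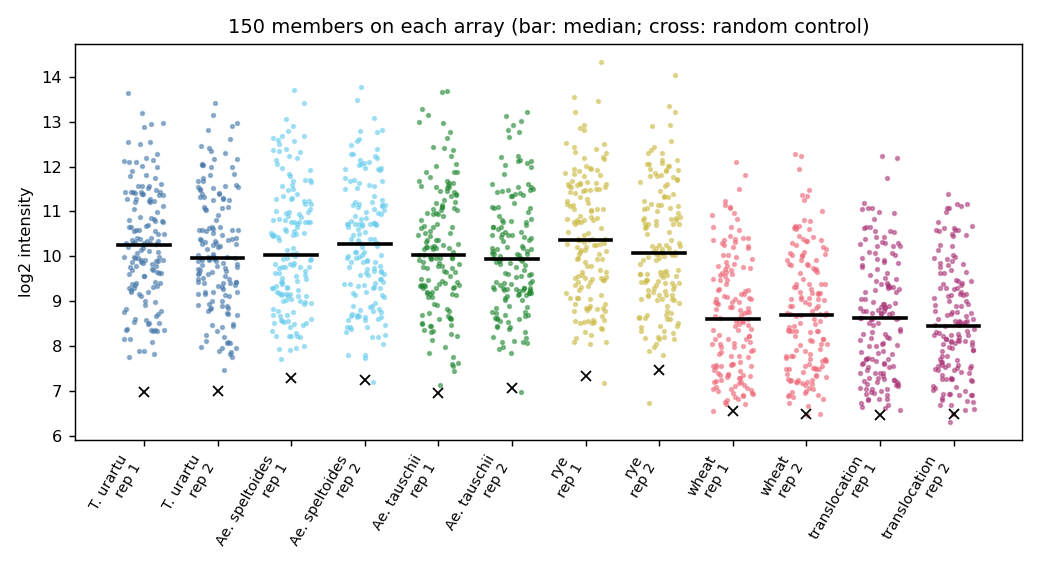
Log2 intensity of the 150 members on each of the 12 arrays, with the array's median as a bar and its random control feature as a cross. Diploid medians lie between 9.94 and 10.37 and hexaploid medians between 8.46 and 8.70, and the cross is also lower on the hexaploid arrays.

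A random control feature on each array served as a background level, at 6.53 ± 0.04 (log2, SD, n = 2) in wheat and 6.48 ± 0.02 in translocation. The number of members under that level on both wheat arrays was 0, and it was likewise 0 in translocation and in each diploid. The rule would have admitted such levels in the hexaploids. In the diploids it could not. Their floored means had to lie at least 0.7 above 7, and the control read at most 7.47 on a diploid array. Over all features 4187 in wheat and 3955 in translocation were under the control on both arrays. The lowest member mean was 6.69 in wheat and 6.63 in translocation, close above it. On each wheat array and on translocation replicate 2 the dimmest member of that array read below the control. The same held on Ae. speltoides replicate 2, Ae. tauschii replicate 2 and both rye arrays.

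By group means both hexaploids lay below all 4 diploids in every member, as the rule demands, and in 22.8% of all features. All 4 hexaploid arrays lay below all 8 diploid arrays for 144 members, against 9.76% of all features. The remaining 6 members overlapped on single arrays. In Tmonococcum_ESTC000770, the most discordant of the named members, the Ae. tauschii arrays read 7.13 and 10.17 and the rye arrays 8.94 and 6.73, and no hexaploid array reached the lower values of Ae. speltoides, 9.12, or of T. urartu, 8.08. In 29 members the replicates of at least 1 group differed by 1 log2 or more. In limma fits over all features, 64 members were called lower in both hexaploids than in each of the 4 diploids, that is in all 8 comparisons (0.157% of all features), and 3 members in none of the 8. The number called in all 8 was 29 with cyclic loess and 8 with scaling to the random control. A feature was called at a Benjamini-Hochberg adjusted p under 0.05 and a difference of at least 1 log2. By single comparison, wheat was called lower than T. urartu in 118 members (6.62% of all features), than Ae. speltoides in 126 (7.16%), than Ae. tauschii in 105 (5.71%) and than rye in 127 (11.1%). For translocation the numbers were 123 (7.3%), 124 (7.88%), 114 (6.5%) and 131 (11.9%) in the same order. The rule used these contrasts, and nothing is read from those shares.

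Aspeltoides_ESTC001065 had the widest gap, 2.79 between rye and wheat. It read 12.89 and 12.97 in T. urartu, 12.67 and 12.28 in Ae. speltoides, 13.14 and 13.02 in Ae. tauschii and 11.85 and 11.77 in rye. On the wheat arrays it read 8.88 and 9.18, and on the translocation arrays 8.94 and 8.17. All 4 hexaploid arrays lay far under the lowest diploid array, and rye lay under the 3 progenitors. Wheat held 7.06% of the progenitor mean and translocation 5.25%, the lowest shares among the members in both lines.

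Taestivum_ESTC018272, with a gap of 2.26, gave much the same picture from a bread wheat sequence. It read 12.97 and 13.14 in T. urartu, 12.90 and 12.82 in Ae. speltoides, 12.99 and 13.21 in Ae. tauschii and 11.94 and 11.91 in rye, against 9.59 and 9.74 in wheat and 9.49 and 8.89 in translocation. Groups of diploid and hexaploid arrays did not overlap. Over the 12 arrays it differed from Aspeltoides_ESTC001065 by 0.42 (root mean square, log2), less than from any other member, and whether both read 1 transcript is not given by the IDs.

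Taestivum_ESTC009490 had a gap of 2.20 and a different order of diploids. It read 10.65 and 10.64 in T. urartu and 10.77 and 10.79 in Ae. speltoides, and 9.57 and 9.30 in Ae. tauschii and 9.51 and 9.28 in rye. Wheat read 7.20 on both arrays and translocation 7.01 and 7.35. The diploids fell into a higher and a lower pair, and both hexaploids lay under the lower pair.

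Outside the members, the feature closest to Aspeltoides_ESTC001065 over the 12 arrays was Taestivum_ESTC016567, at a root mean square distance of 0.48. It averaged 12.86, 12.62 and 12.98 in the 3 progenitors, 10.73 in rye, 8.89 in wheat and 8.65 in translocation. Its widest gap lay between rye and Ae. speltoides, so the rule did not take it. The next closest, Taestivum_ESTC030646 and Scereale_ESTC000082, lay at 0.95 and 1.22.

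At the other end, the narrowest kept gaps were those of Taestivum_ESTC037278 and Taestivum_ESTC011018, at 0.80 each. Taestivum_ESTC037278 read between 9.51 and 9.98 on the 8 diploid arrays, 8.62 and 9.05 in wheat and 8.85 and 8.74 in translocation. It held 53.9% of the progenitor mean in wheat, the highest share of any member there. Taestivum_ESTC011018 was noisier, with 7.77 and 9.41 in T. urartu. Next outside were Taestivum_ESTC026201 and Taestivum_ESTC001709, with gaps that also round to 0.80. The 107 features that met the rule and were not kept had gaps from 0.70 to 0.80.

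**Figure D2:**
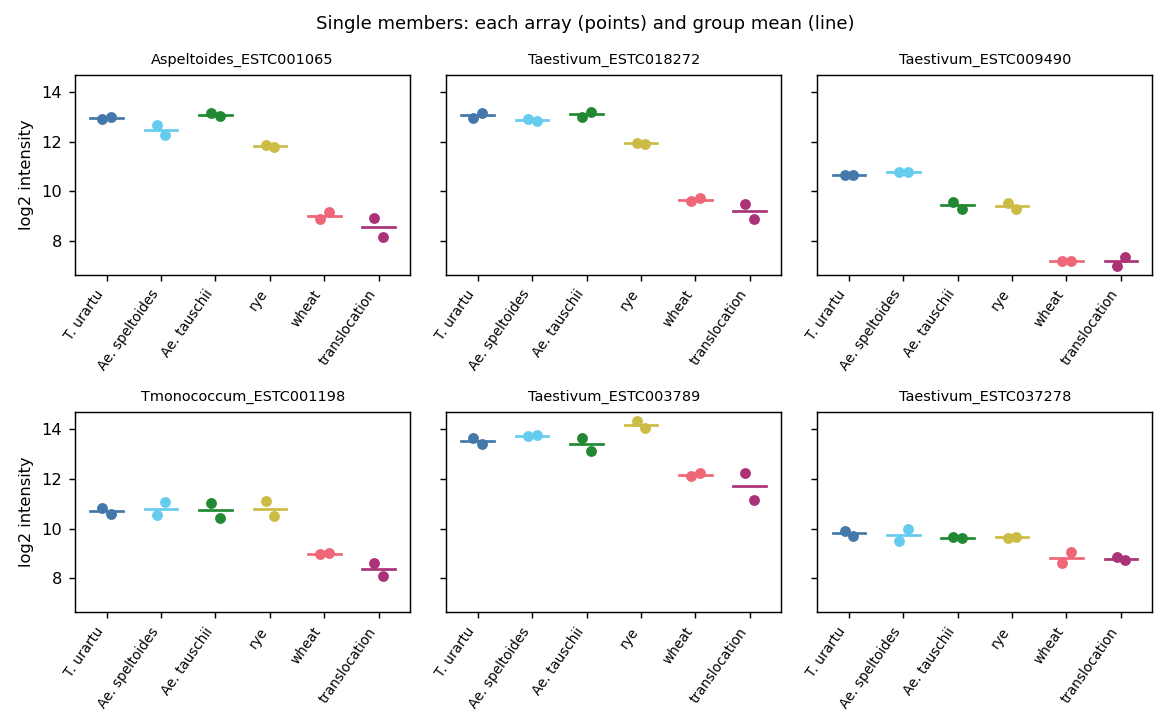
Log2 intensity of 6 members in each group, with the 2 arrays as points and their mean as a line. The 3 upper panels show the widest gaps (2.79, 2.26 and 2.20), and the lower panels show the smallest range among diploids, the highest diploid level and a gap of 0.80.

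The members spanned a wide range of levels. Their diploid means ran from 8.12 to 13.71, with a median of 10.08 (log2), below the 10.57 of all features. The brightest was Taestivum_ESTC003789, which read 13.63 and 13.42 in T. urartu, 13.71 and 13.77 in Ae. speltoides, 13.66 and 13.13 in Ae. tauschii and 14.33 and 14.04 in rye. Wheat read 12.10 and 12.24 and translocation 12.24 and 11.17, so this transcript remained bright in the hexaploids at a lower level. Taestivum_ESTC038163 was next, with diploid arrays from 12.81 to 13.48 and hexaploid arrays from 11.39 to 12.19. Both features also had the highest hexaploid means of all members, 11.94 and 11.84.

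Between the hexaploid lines no member was called different. Limma called 0 of 150 members between translocation and wheat, against 0.642% of all features, and the smallest adjusted p of a member was 0.309. At that share few calls or none would be found in any 150 features, so the 0 is not read as particular to the members. Unadjusted p values under 0.05 occurred for 6 members, 4% of them, against 5.85% of all features. In 136 members the lines differed by under 0.5 (log2), 90.7% beside 92.2% of all features.  The rule keeps both lines below the gap, and so bounds their difference without choosing its direction.

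By the deposited labels, translocation lay below wheat in 94 members, 62.7% beside 50.2% of all features, by a median of 0.05 on the log2 scale. Without translocation replicate 2 the number was 80 of 150, beside 50.7% of all features, and without each other hexaploid array it was 87 to 105. That array lay below translocation replicate 1 in 94 members, by a median of 0.10. Under scaling to the random control the number was 75, beside 41.2% of all features. The largest difference was that of Scereale_ESTC004357, which read 9.62 and 10.34 in wheat and 9.63 and 8.50 in translocation, a log2 difference of -0.91 with a standard error of 0.37 (limma adjusted p = 0.774). Its arrays overlapped between the lines.

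Among the 4 diploids most members were level. The range over the diploid means had a median of 0.61 (log2), and it stayed under 1 in 106 members, 70.7% beside 55.5% of all features. The rule bounds the steps between neighbouring diploids by the gap to the hexaploids, so a narrow range is partly its doing. Tmonococcum_ESTC001198 had the smallest range, 0.09, with means of 10.72 in T. urartu, 10.81 in Ae. speltoides, 10.73 in Ae. tauschii and 10.80 in rye. The diploid arrays of this feature ran from 10.43 to 11.12, while wheat read 8.97 and 9.02 and translocation 8.64 and 8.11. Taestivum_ESTC029140 had a range of 0.12 at a lower level, from 8.23 to 8.73 on the diploid arrays and from 6.99 to 7.47 on the hexaploid arrays.

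Calls between diploids were fewer among members than over all features in each of the 6 pairs. T. urartu against Ae. speltoides gave 7 called members, 4.67% beside 18.2% of all features. T. urartu against Ae. tauschii gave 12 (18.4% of all features), and Ae. speltoides against Ae. tauschii gave 13 (17% of all features). Rye against T. urartu gave 16 (23.2%), rye against Ae. speltoides 14 (18.2%) and rye against Ae. tauschii 16 (21.8%). At least 1 pair was called in 42 members, 28% of them, beside 42.2% of all features. These pairs share arrays and are not independent of one another, and the bound set by the rule applies to each.

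**Figure D3:**
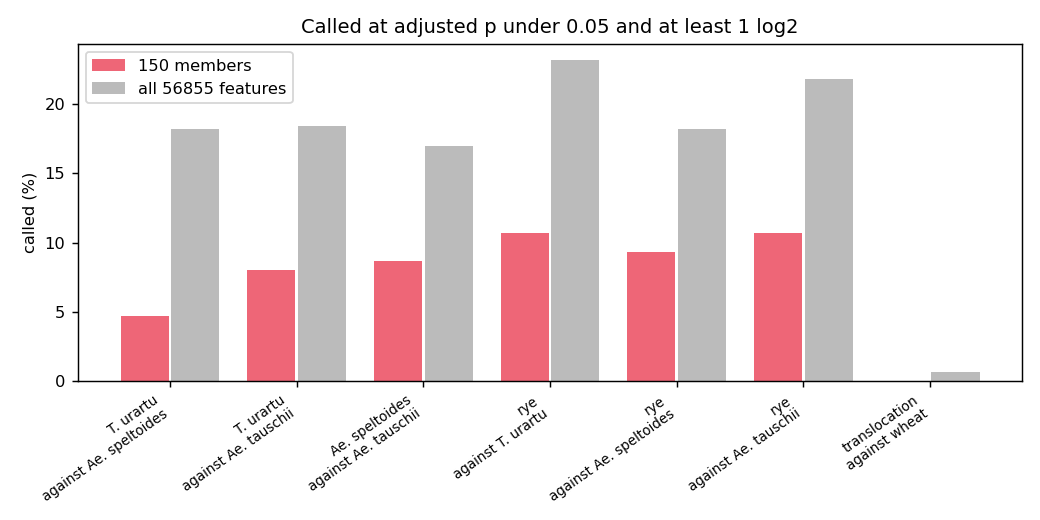
Percentage called by limma in each pair of diploids and between the hexaploid lines, for the 150 members and for all 56855 features. The member bars are lower in all 6 diploid pairs, where the rule bounds the differences. Between the hexaploid lines they stand at 0, near the 0.642% of all features.

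In the deposited values Ae. tauschii was most often the lowest diploid and least often the highest, an order that scaling changed. It was lowest in 57 members, 38% beside 25.7% of all features, and highest in 20, 13.3% beside 21.3%. It was called lower than at least 1 other diploid in 24 members, 16% beside 18.1% of all features, so such calls were not more frequent among members. It was called higher in 8, 5.33% beside 19.5%. With median scaling Ae. tauschii was lowest in 69 members (29.8% of all features). With cyclic loess it was lowest in 46 (24.6%) and rye in 47 (25.2%). With scaling to the random control Ae. tauschii was lowest in 21 (13.9%) and rye in 70 (40.7%). Ae. tauschii was then highest in 35 members (35% of all features) and rye in 22 (16.3%). Leaving out single arrays gave 45 to 69 members with Ae. tauschii lowest. Without Ae. tauschii replicate 2 it was highest in 28 members (22.9% of all features), and T. urartu was then highest in 26 (21.7%).

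Some members had a marked leader among the diploids, and the following were picked for that. Taestivum_ESTC049197 read 10.78 and 10.59 in T. urartu and between 9.04 and 9.48 in the other diploids, with 6.63 to 7.13 in the hexaploids. Taestivum_ESTC032822 had nearly the same profile in the diploids and wheat, at a distance of 0.28 from it over the 12 arrays. In translocation it read 7.22 and 7.64, against 6.63 and 6.92 for Taestivum_ESTC049197. Taestivum_ESTC019377 was led by Ae. speltoides, with 11.84 and 11.67, against 9.47 to 10.80 in the other diploids and 7.79 to 8.14 in the hexaploids. In these 3 the leader stood apart from the other diploids on both of its arrays, and the hexaploids lay below all diploid arrays. Tmonococcum_ESTC000770, also led by Ae. speltoides, read 9.12 and 10.03 there, and the Ae. tauschii array at 10.17 lay above both.

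Of the members led by Ae. tauschii, Taestivum_ESTC001752 read 10.91 and 10.22 there and 8.83 to 10.05 in the other diploids. Taestivum_ESTC031328 read 9.65 and 9.25 there, within the 8.23 to 9.49 of the others on 1 array. The leading rye members came from rye sequences. Scereale_ESTC002109 read 12.01 and 11.17 in rye and 10.02 to 10.51 in the other diploids, with 8.54 to 8.95 in the hexaploids. Scereale_ESTC004357 read 12.40 and 12.56 in rye and 10.76 to 11.63 in the other diploids.

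The sequences behind the members came from 4 kinds of source, taking the species in the ID as the source. Bread wheat sequences gave 106 members, 70.7% beside 75.1% of all features. Einkorn, T. monococcum, gave 19 (12.7% beside 10.1%), rye 18 (12% beside 10.1%) and Ae. speltoides 7 (4.67% beside 4.38%). Of the 228 features from Ae. tauschii and Ae. squarrosa, an older name of the same species, 0 were members. Each member was read by 2 probes, as were 56843 of all features. Among the 18 from rye sequences rye was the highest diploid in 13, while it was highest for 70.4% of all features from rye. Among the 106 from bread wheat rye was highest in 37, beside 31.1% of all features from bread wheat. Most members therefore had probes designed on wheat sequence.

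The rule was also applied to 1 array of each group, and the features it found were described on the arrays it had not used. The replicate 1 arrays gave 302 features. On the replicate 2 arrays both hexaploids lay below all 4 diploids for 264 of them, 87.4% beside 21% of all features. Their median difference was -1.28 where they were chosen and -1.05 on the other arrays, beside -0.11 for all features there. The rule itself was met again by 83, 27.5% beside 0.433% of all features, so most did not meet it on the other arrays. Chosen on replicate 2, 246 features were found, and 215 of them, also 87.4%, had both hexaploids lowest on replicate 1, beside 20.4% of all features. The medians were -1.18 and -1.07, and 83 of the 246 met the rule again, 33.7% beside 0.531% of all features. All arrays were normalised together, so these arrays are not independent in that respect. The random control also read lower on every hexaploid array than on any diploid array. A shift that both replicates share would repeat in the same way, so the repeat cannot tell it apart from a difference of the members.

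Control features moved in the same direction as the members. The random control, at 6.53 in wheat and 6.48 in translocation, averaged 6.99 in T. urartu, 7.27 in Ae. speltoides, 7.01 in Ae. tauschii and 7.41 in rye. All 4 hexaploid arrays of it lay below all 8 diploid arrays. Of 7 control features named sGFP, 6 had both hexaploid means below all diploid means, by 0.14 to 0.45, and the brightest, sGFP_Barcds000001 (10.99 to 11.50 in the diploids), did not. Over all features the median difference between hexaploids and diploids was -0.30 at a diploid level of 8 to 9, -0.29 at 9 to 10, -0.19 at 10 to 11 and -0.08 at 11 to 12. The members' medians in those classes were -1.38, -1.55, -1.45 and -1.35. What part of the members' difference this shift makes up was not tested.

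**Figure D4:**
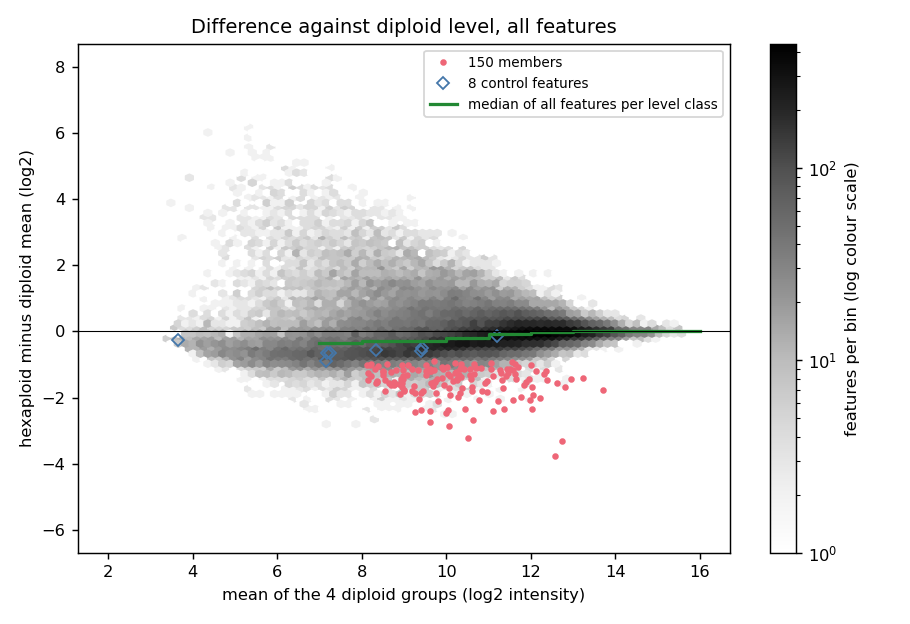
Hexaploid minus diploid mean (log2) against the mean of the 4 diploid groups (log2 intensity) for all features (grey density), the 150 members (red), the 8 control features (blue diamonds) and the median of all features per level class (green). Members lie from -0.89 down to -3.79, while the green line lies between -0.34 and 0 and all 8 control features lie below 0.

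Scaling changed how many features met the rule. Against 257 as deposited, median scaling gave 239, cyclic loess 88 and a shift to the level of the random control 18. The mirror pattern, with only the hexaploids above the widest gap, was met by 1099 features as deposited, 1105 with median scaling, 1399 with cyclic loess and 2268 when set to the random control. Taking all features, hexaploids and diploids differed by a median of -0.11 in the deposited values, 0.00 after cyclic loess and 0.56 with the random control set level. The members' medians were then -1.45, -1.20 and -0.79. With scaling to the random control 139 members had both hexaploid means below all diploid means, beside 1.37% of all features. That scaling moves all features of an array by the same amount. The members were chosen for their gap in the same values, so their count is largely set by the choice.

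**Figure D5:**
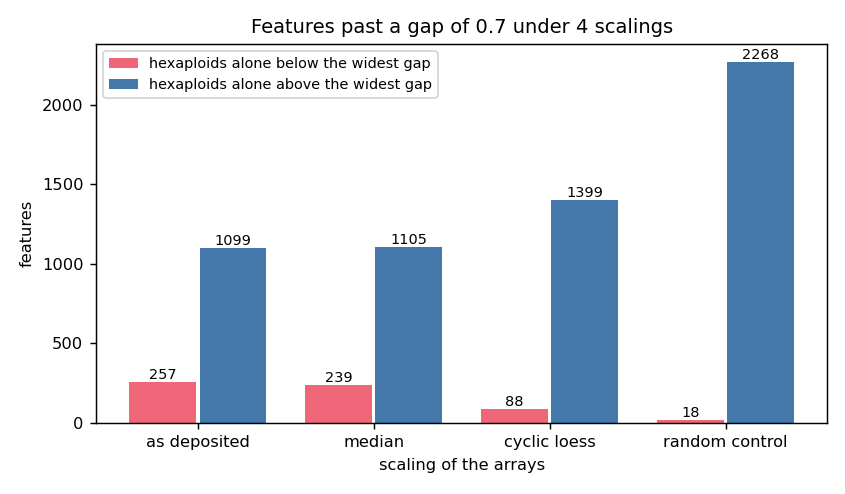
Number of features whose widest gap is at least 0.7 with only the hexaploids below it (red) or above it (blue), under 4 scalings of the arrays. The red count falls from 257 to 18 and the blue count rises from 1099 to 2268 when arrays are scaled to the random control.

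The 18 features that met the rule under scaling to the random control were all members and met it under the other scalings too. Their gaps as deposited ran from 1.19 to 2.79, and 13 of them were among the 20 widest. They lay 2.83 to 13.8 times below the diploid mean as deposited, with a median diploid mean of 11.16 and a median hexaploid mean of 8.90 (log2). By source 13 came from bread wheat, 3 from T. monococcum and 1 each from rye and Ae. speltoides. The 3 widest were among them, and their gaps under scaling to the random control were 1.91 for Aspeltoides_ESTC001065, 1.38 for Taestivum_ESTC018272 and 1.29 for Taestivum_ESTC009490. Taestivum_ESTC003789, the brightest member, was there with 0.74, and Tmonococcum_ESTC001198, the most level among the diploids, with 0.93.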

How the data were processed

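The deposited values give the intensity of a feature on an array after RMA, per the submitters' processing notes. No version or setting is named in the sources used here. The size of the values shows a linear scale. The raw probe table was used only to count the probes of a feature, since its 12 value columns match no label. The deposited intensities were put on a log2 scale without an offset. The 8 control features were left out of the tests.

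The rule was applied to means floored at 7. All other levels and the fits are without the floor. Limma 3.58.1 (R 4.3.3) fitted 1 mean per group over the 12 arrays (6 residual and 2.97 prior degrees of freedom), with Benjamini-Hochberg adjustment over 56855 features. The procedure was tested on simulated data. The features lowered in both hexaploids there differed by more than most members do, and no shift between arrays was simulated. The simulation therefore does not bear on the shift of the control features. The number of arrays limits the precision.

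Members, tests and alternatives were chosen with earlier results of these data known. Features were named by fixed rules: widest and narrowest gaps and the next outside, leaders of each diploid, smallest diploid range, highest levels, and likeness to the member with the widest gap. No member was called between the hexaploid lines, so none is named for that. Scereale_ESTC004357 is discussed there, and members of a similar profile paired, after their values were seen. Same-numbered arrays are not said to be paired, and their deviations correlated at -0.06 to 0.21. Slide was not tested, since the sources used here do not tie it to samples. Sequences of features are not used here.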

Additional observations from a re-analysis of the deposited data

How the results depend on the processing

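The number of features meeting the rule was 257 as deposited, 426 with no floor, 68 with a gap of at least 1, 88 with cyclic loess and 18 with scaling to the random control. A stricter gap gives fewer and a missing floor more by construction, and for the scalings the cause was not tested. The mirror count of 1099 was 2268 with scaling to the random control, an alternative chosen after seeing the data. Leaving out each array gave 232 to 290 features meeting the rule. Members called lower in all 8 hexaploid against diploid comparisons were 64, against 29 with cyclic loess (0.0598% of all features), 8 with scaling to the random control (0.0176%), 124 on adjusted p alone (1.49% of all features) and 49 to 66 without single arrays. On adjusted p alone, which drops the size limit, the called members were 19 for T. urartu against Ae. speltoides (32.8% of all features), 22 for T. urartu against Ae. tauschii (30.9%), 27 for Ae. speltoides against Ae. tauschii (30.4%), 34 for rye against T. urartu (44.2%), 26 for rye against Ae. speltoides (32.9%) and 35 for rye against Ae. tauschii (40.6%). Without the dimmest 25% of features, which removes members, T. urartu against Ae. tauschii gave 5 of the 105 members left, against 17% of the features tested there. Leaving out each array gave 5 to 8, 10 to 12, 9 to 14, 15 to 21, 12 to 16 and 10 to 17 in those 6 pairs, the lowest of the last without rye replicate 1, and 0 between the hexaploid lines. With the replicate block, 0 members were called between the hexaploid lines, 65 lower in all 8 comparisons, and 7, 11, 13, 16, 14 and 16 in the pairs, which changed no call count by over 1.5 times. Of 80 settings compared in which no array was left out, 60 stayed within 1.5 times or within the replicate spread and 20 moved. In the 3 widest members the lowest diploid mean stayed above the higher hexaploid mean in each setting. These members were chosen for the widest gaps in the same values, so that outcome is largely set by the choice.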
